A study of Homo sapiens with 2 samples.

Results

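The genes of the interferon response and of antigen presentation were described in NCI-H2030, an established line of human lung adenocarcinoma cells. The 48 genes were chosen by symbol for their known function, and every one had a row in both libraries, out of 55773 annotated symbols. TAP2 had rows under 2 gene identifiers, which were summed. The series compares 1 library of cells treated with miR-494-3p AS and 1 library of cells treated with SC. The labels spell out neither abbreviation, and both cultures are the same cell line with no other treatment named. With 1 library a group there is no spread between replicates, so no test was possible and every difference below is one between these 2 libraries.

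Interferons bind receptors on the cell surface, whose associated Janus kinases activate STAT and IRF transcription factors. These raise the transcription of many interferon-induced genes, among them antiviral effectors, sensors of foreign RNA and the machinery that loads peptides onto HLA class I molecules. Some sensors, such as the products of DDX58 and IFIH1, detect double-stranded RNA in the cytoplasm and lead to further interferon production. Tumour cells can hold part of this programme at a constant level, and class I presentation decides which tumour peptides T cells can see. The genes are given here in 4 classes, as receptors and signalling proteins (12 genes), RNA sensors (9), effectors (16) and antigen presentation (11). The class called RNA sensors also holds genes that act on sensing or after it, among them ADAR, TRIM25 and OASL.

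Promoter sequences show which members carry a recognisable interferon element. The interferon-stimulated response element (ISRE) was searched as the letters GAAANNGAAA, on both strands and with overlapping matches kept, in the 250 bases before each start in RefSeq (GRCh38.p14). Promoters of 38 members were in the table, with more than 1 start for some. An ISRE match lay before at least 1 start in 21 of the 38 (55.3%) and in 3.71% of all 27305 genes of the table. Among the effectors 13 of 14 had a match, in antigen presentation 6 of 9, among RNA sensors 2 of 7, and among receptors and signalling proteins 0 of 8. The members were picked as interferon genes, so this is a description of the list and not an independent result. The gamma-activated element TTCNNNGAA was present in 9 of 38 (23.7%), against 8.09% of all genes. The following are shown as examples from each class, 5' to 3' on the strand of the gene, with ISRE matches in capitals. ISG15, IFITM3 and IFI44L are effectors, OAS3 is a sensor, TAP1 is a peptide transporter with matches on the opposite strand, and JAK1 is a kinase with no match before any of its 3 starts.
ISG15, chr1:1013247-1013496, plus strand: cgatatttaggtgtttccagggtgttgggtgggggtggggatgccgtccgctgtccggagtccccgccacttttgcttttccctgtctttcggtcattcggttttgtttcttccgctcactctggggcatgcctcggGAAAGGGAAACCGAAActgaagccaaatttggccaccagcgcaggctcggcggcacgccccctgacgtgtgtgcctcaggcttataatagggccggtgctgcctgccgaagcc
IFITM3, chr11:320861-321110, minus strand: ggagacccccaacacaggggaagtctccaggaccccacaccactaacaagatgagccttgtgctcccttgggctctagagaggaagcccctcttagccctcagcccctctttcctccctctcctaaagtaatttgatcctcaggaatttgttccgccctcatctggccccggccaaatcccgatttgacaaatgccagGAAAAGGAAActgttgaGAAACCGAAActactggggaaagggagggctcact
IFI44L, chr1:78620198-78620447, plus strand: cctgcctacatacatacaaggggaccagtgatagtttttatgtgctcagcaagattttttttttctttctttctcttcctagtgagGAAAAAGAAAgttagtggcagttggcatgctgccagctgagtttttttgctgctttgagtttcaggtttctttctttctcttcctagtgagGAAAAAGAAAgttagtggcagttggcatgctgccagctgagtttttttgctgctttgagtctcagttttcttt
OAS3, chr12:112938224-112938473, plus strand: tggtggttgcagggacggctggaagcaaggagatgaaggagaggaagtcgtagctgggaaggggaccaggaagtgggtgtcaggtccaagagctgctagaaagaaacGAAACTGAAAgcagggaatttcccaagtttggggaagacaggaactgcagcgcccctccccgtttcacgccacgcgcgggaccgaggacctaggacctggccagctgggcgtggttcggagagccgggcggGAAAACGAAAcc
TAP1, chr6:32853705-32853954, minus strand: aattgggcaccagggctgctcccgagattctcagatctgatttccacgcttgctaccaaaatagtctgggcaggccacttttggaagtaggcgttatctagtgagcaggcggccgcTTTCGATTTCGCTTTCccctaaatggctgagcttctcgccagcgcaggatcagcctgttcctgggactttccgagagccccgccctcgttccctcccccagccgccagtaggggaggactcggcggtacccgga
JAK1, chr1:65067747-65067996, minus strand: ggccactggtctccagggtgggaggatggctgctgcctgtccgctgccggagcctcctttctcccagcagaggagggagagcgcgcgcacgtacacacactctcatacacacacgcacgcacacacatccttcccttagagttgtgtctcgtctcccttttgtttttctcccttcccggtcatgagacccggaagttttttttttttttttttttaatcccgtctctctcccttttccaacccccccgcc

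The microRNA named in the treatment is shown with its seed, bases 2 to 8, in capitals, from RefSeq (GRCh38.p14), because the seed sets which 3' UTR letters can pair with it.
hsa-miR-494-3p, chr14:101029681-101029702, plus strand: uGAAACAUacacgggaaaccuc

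**Figure D1:**
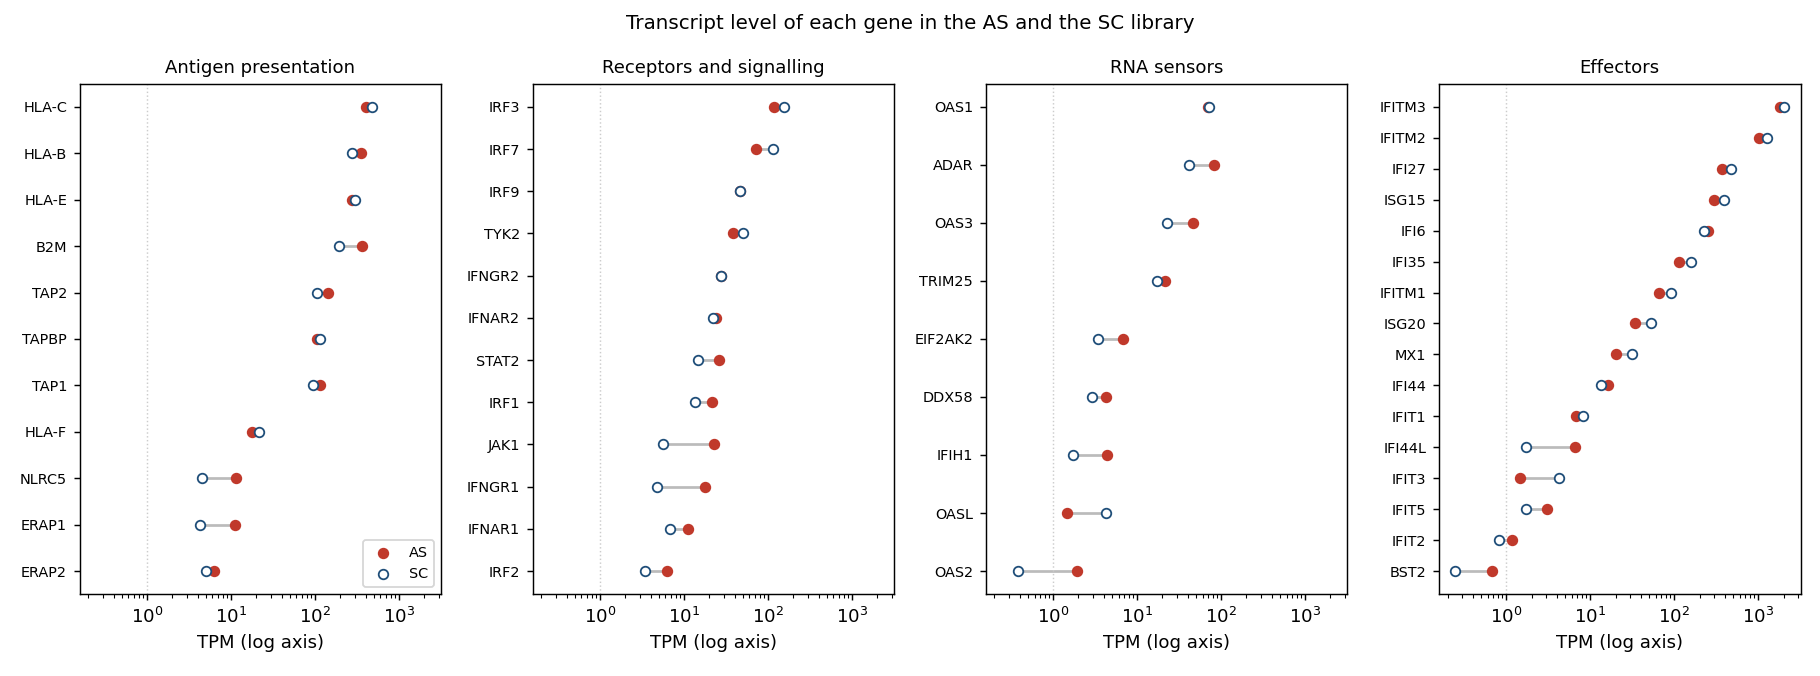
TPM of each of the 48 genes on a log axis, in 4 panels by class, with filled points for AS and open points for SC; the dotted line marks 1 TPM. Effectors span the widest range, with IFITM3 at 1819 TPM in AS and 2029 TPM in SC and BST2 at 0.670 TPM in AS and 0.249 TPM in SC.

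Levels are given in TPM, which is scaled to transcript length and to the size of the library and can be compared between genes. All members together summed to 6486 TPM in AS and 6963 TPM in SC. The IFITM genes made up 44.7% of that sum in AS and 48.6% in SC. In AS 14 members were at 100 TPM or above and 1 was under 1 TPM, and in SC 14 were at 100 TPM or above and 3 were under 1 TPM. Members were counted as measured at a mean of at least 1 TPM over both libraries, which left out IFIT2 and BST2 and kept 46. Ratios are log2((AS + 1)/(SC + 1)), which understate the change of genes of low level, and 2-fold means a ratio of at least 1 in either direction. In bulk RNA, fewer cells with a transcript and less of it per cell cannot be told apart.

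Of the 46 measured members, 6 were past 2-fold upwards in AS (13.0%), against 16.5% of all 13669 measured genes. These were JAK1, IFNGR1, IFI44L, ERAP1, NLRC5 and OAS2. At least 2-fold lower in AS were 2 members (4.35%), OASL and IFIT3, against 2.17% of all measured genes. The other 38 lay between. The median log2 ratio in TPM was 0.19 over the members and 0.28 over all measured genes, and 20 of the 46 members lay above the median of all genes. After centring on that median, 3 members were past 2-fold upwards (6.52%, against 9.17% of all genes) and 2 downwards (4.35%, against 5.09%). In the deposited coverage, the mean read depth over the bases of a row, 2 of the 46 passed 2-fold upwards (4.35%), against 9.47% of all genes. They were JAK1 and IFNGR1. In coverage none of the 46 was 2-fold lower, against 0.863% of all genes, with OASL lowest at a log2 ratio of -0.81.

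Facts of the whole libraries bear on these values. The deposited coverage per unit of FPKM, a measure of aligned bases, was 3.54 in AS and 3.62 in SC in the most frequent case. It held, within 1%, for 51.9% of annotated rows above 0 in AS and 53.4% in SC, and the other rows had other ratios. In AS 14177 genes reached 1 TPM, and in SC 12816. Of 6 epithelial markers, KRT8, KRT18, KRT7 and EPCAM were measured, KRT19 was listed at 0 in both libraries and CDH1 was at 0.01 TPM in each. KRT8 stood at 345 TPM in AS and 486 TPM in SC, and KRT18 and KRT7 were also lower in AS, whereas EPCAM was at 1.84 TPM in AS and 0.604 TPM in SC. Of 6 lung lineage markers only NAPSA and ABCA3 were measured, and NKX2-1, the defining transcription factor, was at 0.03 TPM in each library. Of 8 leukocyte markers, PTPRC, CD3E and FCGR3A were listed at 0 in both libraries, and CD14 and CD68 were measured. CD68, which other cells also make in their lysosomes, was at 203 TPM in AS and 285 TPM in SC, so the list summed to 207 TPM in AS and 294 TPM in SC. The 5 fibroblast markers summed to 18.2 TPM in AS and 27.95 TPM in SC. Of these COL1A1 was at 15.8 TPM in AS and 26.3 TPM in SC, and LUM at 2.35 TPM in AS and 1.67 TPM in SC. The 3 endothelial markers with a row summed to 0.051 TPM in AS and 0.149 TPM in SC.

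The receptors and the kinases bound to them held the highest ratios of the list. JAK1, the Janus kinase shared by both interferon receptor types (ENSG00000162434, chromosome 1, 65298912 to 65432187, minus strand, GRCh37), was at 22.9 TPM in AS and 5.62 TPM in SC, a log2 ratio of 1.85. Its coverage was 22.6 in AS and 10.3 in SC, with a log2 ratio of 1.14 once coverage was put on the TPM scale. Its assembled locus had a ratio of 3.08, at 24.2 TPM in AS and 1.97 TPM in SC, where it overlapped the gene by 0.83 of their union. IFNGR1, the ligand-binding chain of the interferon gamma receptor (ENSG00000027697, chromosome 6, 137518621 to 137540586, minus strand), was at 17.8 TPM in AS and 4.82 TPM in SC. Its log2 ratio was 1.69 in TPM and 1.38 in coverage. Both genes were thus higher in AS in either column, by less in coverage than in TPM.

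Their partner chains and the second kinase were close to equal or lower. IFNGR2, the other chain of the gamma receptor, stood at 27.3 TPM in AS and 27.8 TPM in SC, a log2 ratio of -0.03. TYK2, which pairs with IFNAR1, was at 38.5 TPM in AS and 50.01 TPM in SC (-0.37). Within each receptor pair and the kinase pair, the member with the lower GC content had the higher ratio. IFNAR1 was at 11.1 TPM in AS and 6.75 TPM in SC (0.64), and IFNAR2, the second chain of the type I receptor, was at 23.8 TPM in AS and 22.04 TPM in SC (0.11). Their ratios were 0.56 and 0.44 in coverage, and both passed 2-fold in the assembled loci, at 1.43 for IFNAR1 and 1.07 for IFNAR2. The value of IFNAR2 sets unlike loci side by side, with an overlap over union of 0.53 in AS and 1 in SC. Its locus was also the best overlap of another measured gene. The GC content of the longest transcript was 40.2% for IFNGR1 and 55.0% for IFNGR2, 46.2% for JAK1 and 61.3% for TYK2, and 42.3% for IFNAR1 and 47.0% for IFNAR2. After subtracting the median of coding genes in the same decile of GC content, IFNGR1 lay at 0.79 and IFNGR2 at -0.08. JAK1 then lay at 1.20 and TYK2 at -0.18, and IFNAR1 at -0.13 and IFNAR2 at -0.55. The part of base composition in these gaps was not tested.

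The transcription factors ran both ways without passing 2-fold. STAT2, a subunit of the complex that binds the ISRE, was at 25.96 TPM in AS and 14.5 TPM in SC (0.80), but its ratio was 0.32 in coverage. IRF9, the DNA-binding subunit of the same complex, was at 46.5 TPM in AS and 46.3 TPM in SC (0.01). IRF1, an activator of class I genes, was at 21.6 TPM in AS and 13.5 TPM in SC (0.64), and IRF2, which competes for the same sites, at 6.29 TPM in AS and 3.44 TPM in SC (0.72). The factors that switch on interferon genes after RNA sensing were lower in AS. IRF3 stood at 116 TPM in AS and 156 TPM in SC (-0.42). IRF7 (ENSG00000185507, chromosome 11, 612553 to 615999, minus strand) was at 71.8 TPM in AS and 114 TPM in SC, with a ratio of -0.66 in TPM and -0.63 in coverage. At 66.8%, IRF7 had the highest GC content of the 48 genes, and IRF3 was at 61.5%. From the median of coding genes of like GC content, IRF3 lay at -0.23 and IRF7 at -0.38.

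Genes of the RNA sensor class, which are not all sensors that induce interferon, were mostly higher in AS. In TPM 7 of 9 were above 0 (77.8%, against 66.2% of all measured genes), and in coverage 8 of 9 (88.9%, against 67.6%). The same number, 7 of 9, lay above the median of all measured genes in TPM. ADAR, which edits double-stranded RNA and keeps it from being sensed (ENSG00000160710, chromosome 1, 154554538 to 154600475, minus strand), was at 81.2 TPM in AS and 41.1 TPM in SC. Its log2 ratio was 0.96 in TPM and 0.98 in coverage, just under 2-fold in both, and 1.06 in the assembled locus. OAS3, one of the synthetases that activate RNase L on double-stranded RNA, was at 46.0 TPM in AS and 22.9 TPM in SC (0.97, and 0.82 in coverage). IFIH1, which encodes the sensor MDA5, was at 4.40 TPM in AS and 1.70 TPM in SC, a ratio of 0.999 that fell short of the threshold by little. Its assembled ratio of 0.24 sets unlike loci side by side, with an overlap over union of 1 in AS and 0.20 in SC. EIF2AK2, the kinase PKR that halts translation, was at 6.72 TPM in AS and 3.45 TPM in SC (0.80). By coverage EIF2AK2 had a ratio of 0.75, and it lay at -0.10 from the median of coding genes of like GC content. Its assembled ratio of 1.58 also sets unlike loci side by side, with an overlap over union of 1 in AS and 0.68 in SC. DDX58, which encodes RIG-I, was at 4.22 TPM in AS and 2.88 TPM in SC (0.43), and TRIM25, the ubiquitin ligase of RIG-I, at 21.7 TPM in AS and 17.1 TPM in SC (0.32).

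The remaining OAS genes did not share a direction. OAS1 was at 69.4 TPM in AS and 70.7 TPM in SC (-0.03). OAS2 was at 1.91 TPM in AS and 0.381 TPM in SC, a ratio of 1.08 in TPM and 0.52 in coverage, at a level where the pseudocount weighs. OASL, an OAS relative without synthetase activity that acts on RIG-I (ENSG00000135114, chromosome 12, 121458095 to 121477045, minus strand), ran the other way. It was at 1.47 TPM in AS and 4.28 TPM in SC, with a ratio of -1.09 in TPM and in the assembled locus, and -0.81 in coverage. The overlap over union of its assembled locus was 0.70 in AS and 0.995 in SC. OASL had the lowest ratio of the 46 in both TPM and coverage. The OAS genes together summed to 119 TPM in AS and 98.3 TPM in SC.

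**Figure D2:**
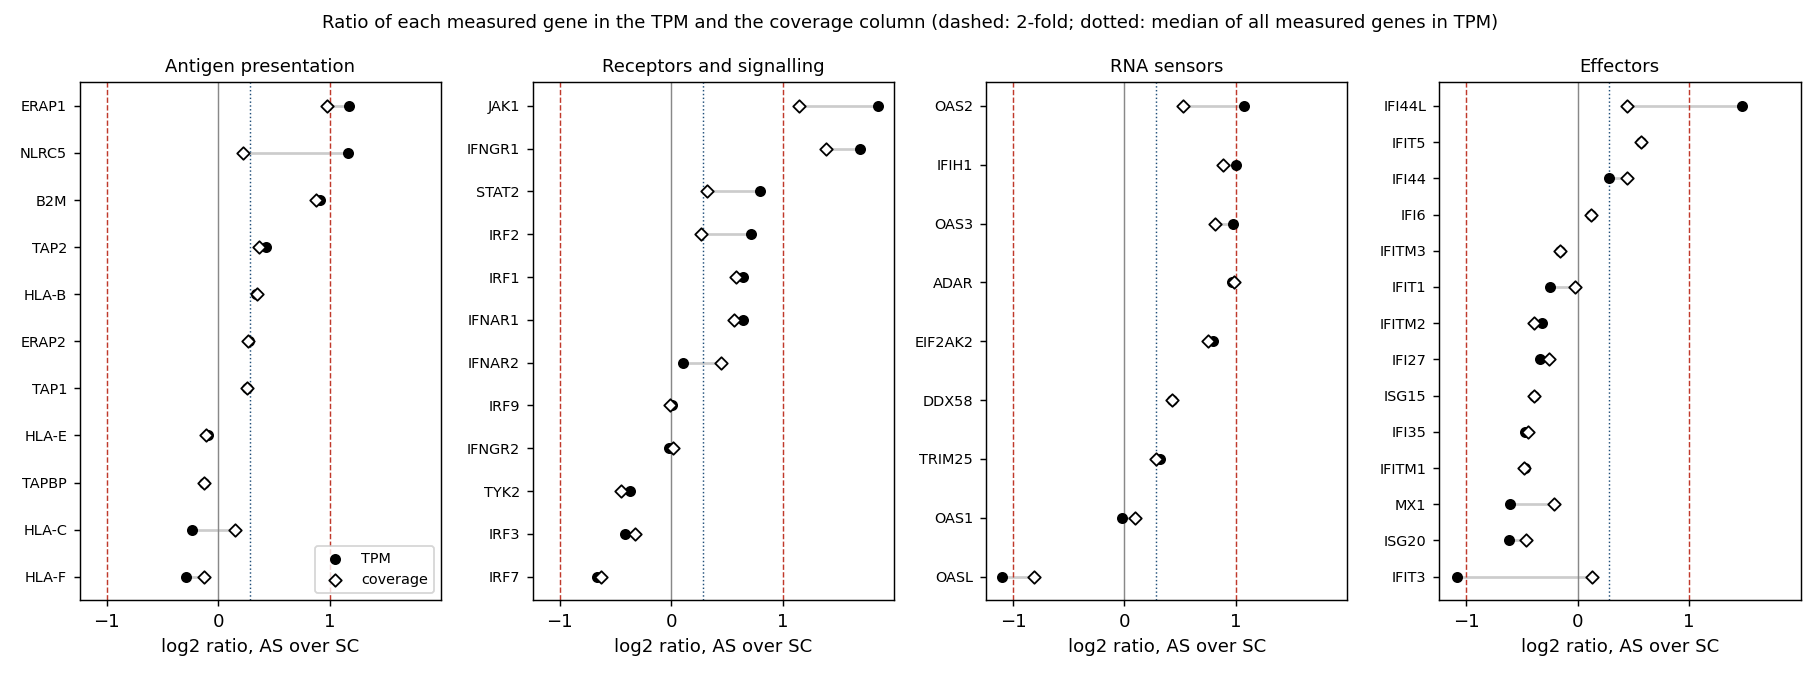
Log2 ratio of AS over SC for each of the 46 measured genes, in 4 panels by class, with filled circles for TPM and open diamonds for coverage; dashed lines mark 2-fold and the dotted line the median of all measured genes, 0.28. Only JAK1 and IFNGR1 lie past 2-fold in both columns, and IFIT3, NLRC5 and IFI44L show the widest gaps between the columns.

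Effectors had the largest sum of the 4 classes, most of it from the IFITM genes, and were mostly lower in AS. The class summed to 4021 TPM in AS and 4745 TPM in SC, and 10 of its 14 measured members had a ratio below 0 (71.4%, against 33.8% of all measured genes). The median measured effector was at 49.9 TPM in AS and 72.2 TPM in SC. Antigen presentation had the higher median, of 114 TPM in AS and 105 TPM in SC. IFITM3, a membrane protein that blocks virus fusion (ENSG00000142089, chromosome 11, 319669 to 327537, minus strand), was at 1819 TPM in AS and 2029 TPM in SC (-0.16). That was higher than 99.5% of all measured genes in each library. Its relatives IFITM2 and IFITM1 were at 1012 and 65.9 TPM in AS, against 1260 and 92.0 TPM in SC (-0.32 and -0.47). The row of IFITM1 (chromosome 11, 313506 to 315272) lies inside that of IFITM2 (307631 to 315272) on the same strand, and the genes are close relatives, so reads may be shared among them. As a family the IFITM genes had a log2 ratio of -0.22 in TPM and -0.25 in coverage, whereas the assembled locus that joins IFITM1 and IFITM2 had one of 0.02.

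Most of the other abundant effectors were also lower in AS. ISG15, a ubiquitin-like modifier (ENSG00000187608, chromosome 1, 948803 to 949920, plus strand), was at 296 TPM in AS and 390 TPM in SC, with a ratio of -0.39 by TPM, by coverage and by its assembled locus alike. IFI27 was at 372 TPM in AS and 471 TPM in SC (-0.34), and IFI35 at 115 TPM in AS and 160 TPM in SC (-0.47). ISG20, an RNA exonuclease, stood at 33.8 TPM in AS and 52.4 TPM in SC (-0.62). MX1, a dynamin-like GTPase active against influenza virus, was at 20.1 TPM in AS and 31.0 TPM in SC (-0.60, and -0.21 in coverage). IFI6 was the exception among effectors over 100 TPM, at 248.9 TPM in AS and 229 TPM in SC (0.12).

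The effectors of low level split. IFI44L (ENSG00000137959, chromosome 1, 79085607 to 79111830, plus strand) was at 6.61 TPM in AS and 1.74 TPM in SC, a ratio of 1.47 in TPM, but its coverage was 4.29 in AS and 2.99 in SC, a ratio of 0.44. Its neighbour IFI44 was at 16.4 TPM in AS and 13.3 TPM in SC (0.28). In AS both genes fell in 1 assembled locus, of 24.99 TPM, whereas in SC the best overlapping loci were at 5.55 TPM for IFI44L and 13.6 TPM for IFI44, so their assembled values are not comparable between the libraries. The IFIT proteins bind viral RNA that lacks host cap marks. IFIT3 was at 1.46 TPM in AS and 4.23 TPM in SC, a ratio of -1.08, whereas its coverage was 2.44 in AS and 2.30 in SC, a ratio of 0.13. IFIT1 was at 6.77 TPM in AS and 8.23 TPM in SC (-0.25), and IFIT5 at 3.05 TPM in AS and 1.73 TPM in SC (0.57). IFIT2 was at 1.17 TPM in AS and 0.814 TPM in SC, and BST2, the tetherin that holds virus particles at the cell surface, at 0.670 TPM in AS and 0.249 TPM in SC, so both were near the limit of measurement beside the abundant effectors.

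Class I antigen presentation was expressed at a high level, and 9 of 11 members lay within 2-fold (81.8%), as did 81.4% of all measured genes. The class I heavy chains HLA-B, HLA-C, HLA-E and HLA-F summed to 1048 TPM in AS and 1068 TPM in SC (-0.03). HLA-B was at 349 TPM in AS and 276 TPM in SC (0.34), and HLA-C at 401 TPM in AS and 472 TPM in SC (-0.23). In coverage the ratio of HLA-C was 0.15, above 0. HLA-E, which presents leader peptides of other class I chains to natural killer cells, was at 279 TPM in AS and 298 TPM in SC (-0.10), and HLA-F at 17.6 TPM in AS and 21.8 TPM in SC (-0.29). These genes are near-identical in parts and vary between people, so a cell line's reads may be assigned unevenly among them. B2M, the light chain that every class I molecule needs (ENSG00000166710, chromosome 15, 45003675 to 45011075, plus strand), was at 362 TPM in AS and 192 TPM in SC. The ratio of B2M was 0.91 by TPM, 0.88 by coverage and 0.89 by its assembled locus, so the light chain stood higher in AS while the heavy chain sum was level.

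Among peptide supply and loading genes, TAP1, TAP2, TAPBP and ERAP2 lay within 2-fold and ERAP1 passed it in TPM. TAP1 and TAP2, the paired subunits of the transporter that carries peptides into the endoplasmic reticulum, had log2 ratios of 0.26 and 0.43. TAP1 was at 114 TPM in AS and 95.02 TPM in SC, and TAP2, summed over its 2 rows, at 142 TPM in AS and 105 TPM in SC. The assembled locus of TAP2 was at 52.3 TPM in AS and 39.9 TPM in SC, with an overlap over union of 0.53 in each. The levels of TAP1 and TAP2 are thus not ranked here. With only the leading of its overlapping rows, TAP2 had a ratio of 0.37. TAPBP, the tapasin that bridges TAP to class I, was at 105 TPM in AS and 115 TPM in SC (-0.13). ERAP1, the aminopeptidase that trims peptides (ENSG00000164307, chromosome 5, 96096521 to 96143803, minus strand), was at 11.02 TPM in AS and 4.32 TPM in SC, with a ratio of 1.18 in TPM and 0.97 in coverage. Its relative ERAP2 was at 6.32 TPM in AS and 5.06 TPM in SC (0.27). NLRC5, the transactivator of class I genes (ENSG00000140853, chromosome 16, 57023397 to 57117443, plus strand), was at 11.4 TPM in AS and 4.54 TPM in SC, a ratio of 1.16. In coverage it was at 3.13 in AS and 2.68 in SC, a ratio of 0.23, and in the assembled locus the ratio was 0.47.

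**Figure D3:**
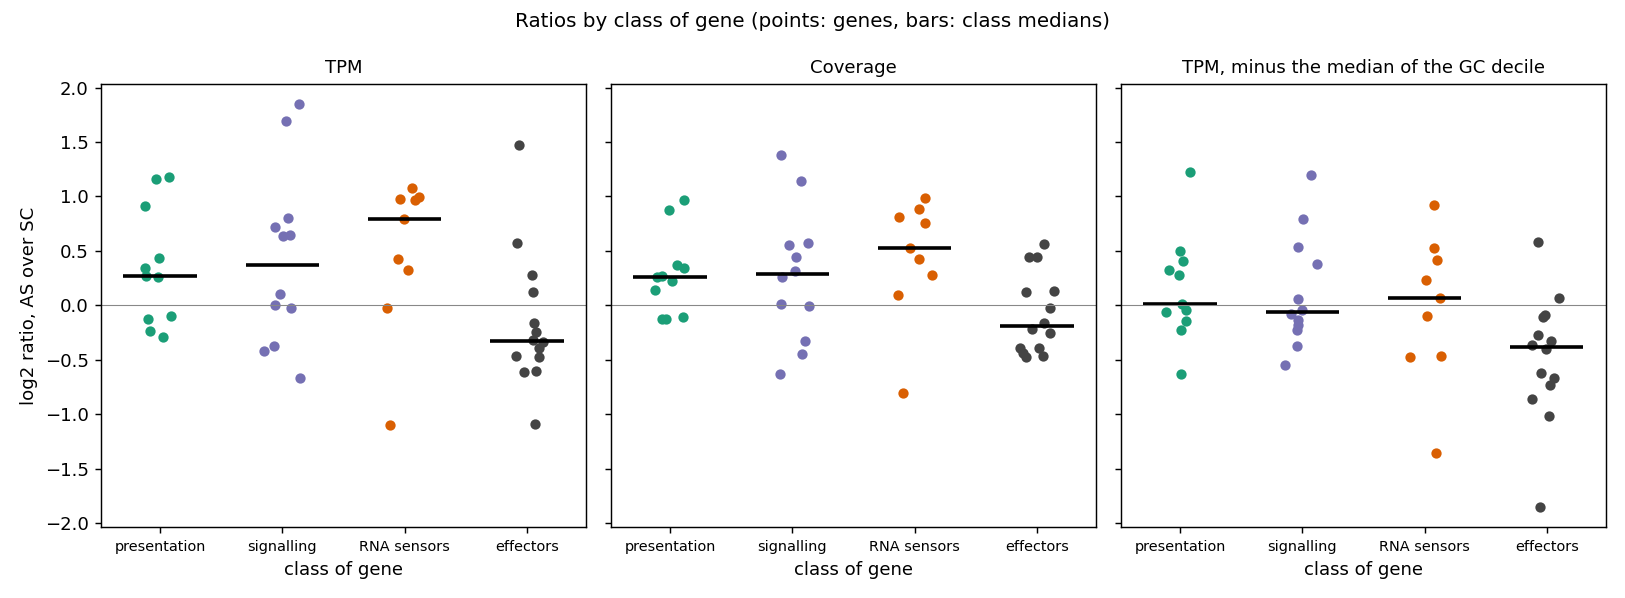
Log2 ratio of AS over SC of each measured gene (points) by class, with class medians (bars), in TPM, in coverage, and in TPM after subtracting the median of coding genes in the same decile of GC content. The effector median is the lowest in each panel, at -0.33, -0.18 and -0.38.

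Between classes, RNA sensors had the highest median and effectors the lowest in both TPM and coverage. The median log2 ratio in TPM was 0.37 for receptors and signalling, 0.80 for sensors, -0.33 for effectors and 0.27 for antigen presentation. In coverage these medians were 0.29, 0.52, -0.18 and 0.26. The median GC content was 52.4%, 48.2%, 53.3% and 57.6% in the same order of classes. The 20 measured members with an ISRE match had a median log2 ratio in TPM of -0.0050, with 10 above 0, and the 17 with a promoter and no match had one of 0.43, with 12 above 0. Their median GC content was 53.3% with a match and 51.1% without. This split overlaps that of the classes, as matches lay in 13 of 14 effectors and 0 of 8 signalling genes with a promoter.

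The ratios of members followed base composition, as those of all genes did. Over the 46 measured members Spearman's rho between GC content and the log2 ratio was -0.52 in TPM and -0.64 in coverage, and over 10766 measured coding genes it was -0.64 and -0.67. All of these genes share the same 2 libraries, and the part of base composition in the ratios was not tested. Of the 19 measured members under 50% GC, 16 had a ratio above 0 in TPM, with a median of 0.72. Of the 27 members at 50% GC or more, 10 did, with a median of -0.16. Coding genes of the lowest decile of GC content had a median of 0.90, and those of the highest decile one of -0.29.

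After subtracting the median of the same GC decile, 2 members were past 2-fold upwards (4.35%, against 4.88% of all measured genes), JAK1 and NLRC5. Past 2-fold downwards were 3 (6.52%, against 4.23%), OASL, IFIT1 and IFIT3. By class, 2 of 14 measured effectors were above the median of their decile, and 6 of 11 presentation genes, 5 of 12 signalling genes and 5 of 9 sensors were. Of all measured genes 48.7% were. In coverage, 1 of 14 effectors was above it, and 48.9% of all measured genes. The median difference from the decile was -0.38 for effectors, 0.06 for sensors, -0.06 for signalling genes and 0.01 for presentation genes in TPM. B2M, at 39.4% GC, lay 0.01 above its decile. JAK1 lay 1.20 above and NLRC5 1.23 above. At the other end, IFIT3 lay at -1.85 from its decile, OASL at -1.35, IFIT1 at -1.02 and MX1 at -0.86.

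**Figure D4:**
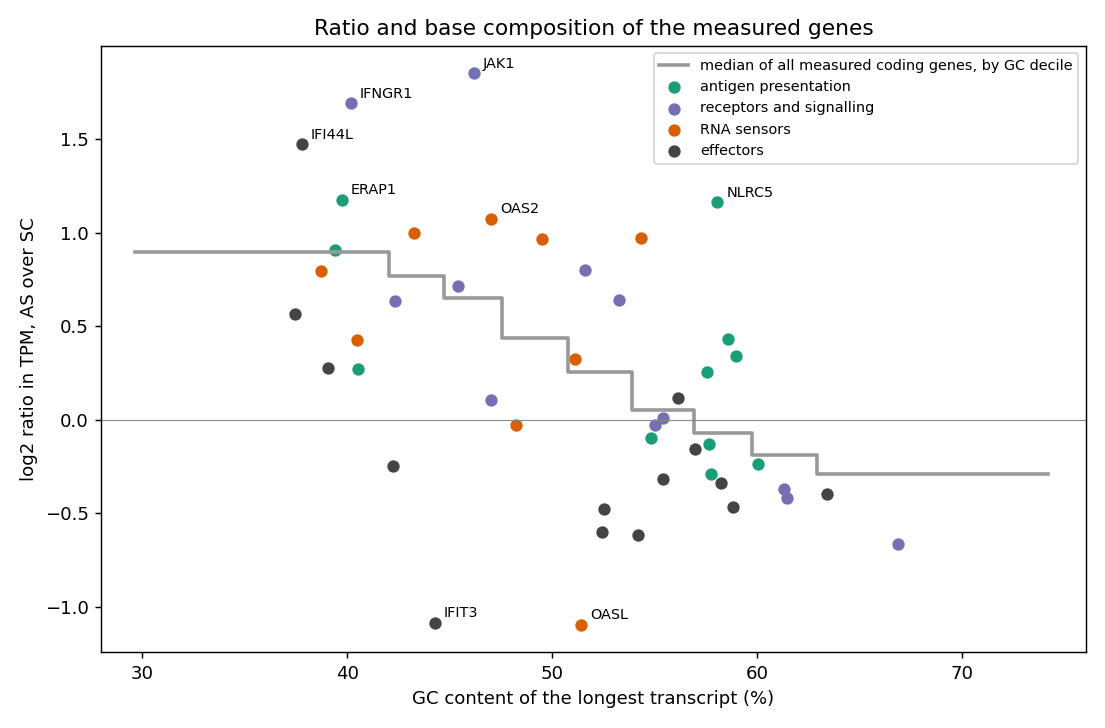
Log2 ratio in TPM of AS over SC (vertical) against GC content of the longest annotated transcript in percent (horizontal) for the 46 measured genes, coloured by class; the grey steps are medians of measured coding genes by decile of GC content. Named points are the 8 genes past 2-fold, and most effectors lie under the steps.

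Other genes of the pathway were taken from lists that complement the members. Of 64 such genes, 39 were measured, of which 6 passed 2-fold upwards in AS (15.4%, against 16.5% of all measured genes) and 1 downwards (2.56%, against 2.17%). In coverage 2 passed it upwards (5.13%, against 9.47%) and none downwards, against 0.863%. Their median log2 ratio was 0.31 in TPM, near the 0.28 of all genes. The list holds 6 genes of interferons themselves, IFNB1, IFNL1, IFNL2, IFNL3, IFNE and IFNK, and other interferon genes were not analysed here. These 6 were under 1 TPM in both libraries, with IFNB1, IFNL1, IFNL2 and IFNK listed at 0. IFNE was highest of the 6, at 0.431 TPM in AS and 0.280 TPM in SC. Among 30 further interferon-induced genes, 9 were under 1 TPM in both libraries, and RSAD2, CXCL10 and CXCL11, which respond strongly to interferon in many cells, were listed at 0 in both. LGALS3BP, in contrast, stood at 1512 TPM in AS and 1983 TPM in SC (-0.39).

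Of the other sensing genes, MB21D1, which encodes the DNA sensor cGAS, was at 6.55 TPM in AS and 1.52 TPM in SC, a ratio of 1.59 in TPM and 1.24 in coverage. Its partner TMEM173, which encodes STING, was at 0.07 TPM in AS and 0.13 TPM in SC. DHX58, a RIG-I relative without signalling domains, was at 20.6 TPM in AS and 33.2 TPM in SC (-0.66). SAMHD1, which degrades nucleotides needed by viruses, was at 12.7 TPM in AS and 5.03 TPM in SC, with a ratio of 1.19 in TPM and 1.07 in coverage. For IFI16, an interferon-induced DNA-binding protein, the ratio of 1.60 in TPM stood beside 0.26 in coverage.

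Feedback regulators were all measured, and 2 of 5 were at least 2-fold higher in TPM, against 16.5% of all measured genes, and none in coverage, against 9.47%. PTPN2, a phosphatase that acts on JAK1, was at 15.5 TPM in AS and 1.10 TPM in SC, a ratio of 2.97 in TPM and 0.83 in coverage. PIAS1, an inhibitor of STAT signalling, was at 4.28 TPM in AS and 1.04 TPM in SC (1.37, and 0.34 in coverage). USP18, which removes ISG15 from proteins, was at 18.6 TPM in AS and 12.7 TPM in SC (0.51), and SOCS3 at 29.8 TPM in AS and 32.9 TPM in SC (-0.14). Of 8 genes of the immunoproteasome and of peptide loading, 7 were within 2-fold (87.5%, against 81.4%). PSMB8 stood at 341 TPM in AS and 316 TPM in SC (0.11), and the loading chaperone CALR at 791 TPM in AS and 1376 TPM in SC (-0.80). PSMB10 was at 46.7 TPM in AS and 97.1 TPM in SC, a ratio of -1.04 in TPM and -0.38 in coverage. Of 5 class II presentation genes 4 were under 1 TPM in both libraries, among them HLA-DRA, listed at 0 in both. HLA-DMA, which helps to load class II molecules, was at 9.91 TPM in AS and 14.03 TPM in SC (-0.46).

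Seed matches of miR-494-3p were no more frequent in the measured members than in measured coding genes at large. The 7-base matches ATGTTTC and TGTTTCA were searched in the longest annotated 3' UTR in GENCODE release 29, counting an overlapping pair once. Of 45 measured members with a 3' UTR, 10 had a match (22.2%), and 27.7% of 10559 measured coding genes did. The median log2 ratio in TPM was 0.30 in members with a match and 0.01 in those without, and 0.63 and 0.19 in the coding genes. Genes with and without a match were not matched for GC content, which the ratios followed, or for 3' UTR length. The part of the seed matches in these medians was not tested. JAK1 and IFNGR1 had no match. IFI44L had the most, with 4 matches in 4336 bases of 3' UTR, shown with the match in capitals.
IFI44L, bases 861 to 867 of the UTR: agaaggaagagTGTTTCAtttatatctga
IFI44L, bases 1962 to 1968 of the UTR: atagaaacttgATGTTTCttaacgttaca
IFI44L, bases 3372 to 3378 of the UTR: atagcttatgcTGTTTCAatgtaaattcg
IFI44L, bases 4128 to 4134 of the UTR: tagactcagacTGTTTCAggctccaggac
The only 8-base match among the members, ATGTTTCA, was in HLA-F, whose ratio of -0.29 in TPM and -0.13 in coverage lay below 0. The first 7 bases of this match are numbered and in capitals, and its last A follows in lower case.
HLA-F, bases 1101 to 1107 of the UTR: tccatttcagcATGTTTCagcctgtctag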

How the data were processed

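RNA-seq tables of 1 AS and 1 SC library were used. Per the labels' protocols, total RNA was purified on columns before directional (strand-keeping) library preparation. The authors deposited a coverage (mean read depth per base), an FPKM and a TPM column for annotated genes and for loci assembled from the reads, per the file headers. By TPM, deposited rows of assembled loci added up to 1000000 in each library, and rows of annotated genes to 968917 in AS and 973681 in SC. The sources used here name no aligner or quantifier. The submitters' processing notes name GRCh38 and hg38, whereas the coordinates are those of GRCh37 and are printed as deposited. Depth in reads is unknown, and no counting interval was computed.

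Rows of annotated genes were summed by symbol, and log2((AS + 1)/(SC + 1)) was computed on TPM with Python 3.11.15, pandas 2.3.3 and NumPy 2.4.6, for genes averaging 1 TPM or more over both libraries. Before the ratio, coverage was rescaled to TPM within each library through FPKM (1 FPKM was 2.13 TPM in AS and 1.98 TPM in SC). Where a gene has several transcripts, TPM depends on how reads were divided among them, and coverage need not follow it. The assembled locus was the one of largest overlap over union on the same strand. It was chosen in each library separately, so the loci set against each other can differ in extent. GC content came from the longest transcript in GENCODE release 29 by gene identifier, with 95.9% of measured genes matched and all 48 members. The ratio calculation was tested on simulated data. All 48 members may be named, and of the other pathway genes the 2 of highest level in each list and the 6 with the largest absolute ratio; genes at 0, TMEM173 and list markers are named in addition, after their values were seen. The members and lists were chosen with earlier results of these data known. There were no replicates.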

Additional observations from a re-analysis of the deposited data

How the results depend on the processing

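With 1 library a group no replicate could be left out, and no paired analysis was possible because the result comes from no test. The main values were 6 members at least 2-fold higher in AS, 2 at least 2-fold lower and a median log2 ratio of 0.19. Against these, 16.5% of all measured genes were higher and 2.17% lower. Of 14 alternatives, 4 were chosen after the data were seen, namely the leading row of each symbol, assembled loci of at least 0.5 overlap, assembled loci that belong to 1 measured gene only, and coverage centred on the GC decile. Each setting is given with its higher and lower members, the shares of all genes in the same order, and the members' median. At a pseudocount of 5 they were 2 and 0 (5.32% and 0.512% of all genes, median 0.14), and at one of 0.1 they were 8 and 2 (23.04% and 3.67%, 0.19). In FPKM they were 3 and 0 (9.37% and 1.64%, 0.083), and in coverage 2 and 0 (9.47% and 0.863%, 0.24). In the assembled loci they were 8 and 1 (16.1% and 3.02%, 0.25), a count that holds IFI44L and IFNAR2, whose loci are shared with other genes. Without 11 members in shared loci they were 6 and 1 (16.2% and 2.13%, 0.25, 34 members), and in loci of at least 0.5 overlap 7 and 1 (13.02% and 1.65%, 0.25, 31 members). At a mean of at least 5 TPM they were 4 and 0 (14.1% and 1.53%, 0.058), and without a filter 6 and 2 (4.39% and 0.656%, 0.26, 48 members). After centring on the median of all genes they were 3 and 2 (9.17% and 5.09%, -0.095), on the GC decile 2 and 3 (4.88% and 4.23%, -0.094), and in coverage so centred 0 and 1 (1.85% and 1.47%, -0.078). Rows on primary chromosomes alone left the members' values as they were, and the leading row of each symbol moved TAP2 alone, to 0.37. Of the 8 members past 2-fold, IFIT3 reversed to 0.13 in coverage. Its assembled ratio of 0.38 sets unlike loci side by side, with an overlap over union of 0.17 in AS and 1 in SC. OAS2 and IFI44L reversed to -0.0069 and -0.24 in coverage centred on the GC decile. Over all 46 members, 19 had the opposite sign in at least 1 of the 14 alternatives, and 8 in at least 1 of the 11 that do not centre the ratios. Those 8 were HLA-C, ERAP2, IFNGR2, IRF9, OAS1, IFIT3, IFITM1 and IFITM2. The class median of effectors stayed below 0 in all 14 alternatives, between -0.61 and -0.09, and that of sensors above 0, between 0.05 and 0.94. The median of all genes was also above 0 in most settings. In the assembled loci it was 0.26, beside 0.28 for sensors, 0.38 for presentation genes and 0.58 for signalling genes. In coverage centred on the GC decile presentation genes were highest, at 0.26, and sensors were at 0.05. The median of presentation genes ran from -0.01 to 0.38 and that of signalling genes from -0.06 to 0.64. JAK1 stayed past 2-fold in 13 of 14 alternatives, with 0.61 in coverage centred on the GC decile. The cause of these shifts was not tested. Depth in reads is not known, so no counting error could be given for members of a few TPM such as OAS2, IFIT3 and OASL.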
